A study of Mus musculus with 15 samples.

Results

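Chemokine ligands were followed in primary mouse lung cells as all probes for non-control spots whose gene name in the array files was a Ccl or Cxcl name with a number, Cx3cl1 or Xcl1. The rule took 47 of 55681 probes, which stand for 35 genes among 46287 features (genes, or probes without a gene name). Chemokines are small secreted proteins that bind heparan sulphate on cell surfaces and G protein-coupled receptors on leukocytes, and so guide these cells into a tissue. CXC ligands with a glutamate-leucine-arginine (ELR) motif attract neutrophils, interferon-inducible CXC ligands attract activated T cells, and CC ligands mainly attract monocytes, eosinophils, dendritic cells and lymphocytes. In the lung, both the alveolar epithelium and the fibroblasts beneath it can release them.

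RNA was measured on Agilent one-colour arrays, with an array for each sample. The 4 groups were alveolar type II (ATII) cells, which line the alveolus and secrete surfactant, with 1 mM β-aminopropionitrile (BAPN; n = 4) or vehicle (n = 4), and lung fibroblasts with 1 mM BAPN (n = 3) or vehicle (n = 4). BAPN irreversibly inhibits lysyl oxidases, the enzymes that start collagen and elastin cross-linking. Vehicle was phosphate-buffered saline, and exposure lasted 24 h in every group. ATII cells had been kept at an air-liquid interface for 3 days, and fibroblasts had 3 or more passages behind them and 24 h without serum, so a cell type difference and one of culture cannot be told apart. All cells were mouse primary cells, and the labels give no genotype difference between groups. Whether the replicates are separate animals or cultures is not in the labels, and the p-values cover only the spread among these arrays, which may be technical. Sample 3 of the fibroblasts with BAPN was not analysed here, and the ATII BAPN array without a number is called replicate 5.

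Levels are normalized log2 intensities, where 0 is the 75th percentile of an array. On each array, 65.2% to 71.2% of spots exceeded the background clearly. Of 6 epithelial markers, all were above background on every ATII array. On the fibroblast arrays 4 or 5 of the 6 were above it with vehicle and 4 with BAPN, and Cdh1 was below it on all. Of 11 alveolar type II markers, 9 or 10 were above background on each ATII array and 6 or 7 on each fibroblast array. Sftpb and Nkx2-1, both of alveolar epithelium, were above background on all 8 ATII arrays and on 0 fibroblast arrays, and Slc34a2 was below it everywhere. The summed linear level of 11 alveolar type II markers (1 being the 75th percentile) was 46.0 to 50.4 in ATII vehicle arrays. In fibroblast vehicle arrays it was 32.5 to 36.9. Of the 9 tested in vehicle, 7 passed the threshold given below as higher in ATII cells and 0 as lower. ATII cultures also carried fibroblast markers: the summed linear level of 11 such markers ran from 1166 to 1539 in ATII vehicle arrays, against 1313 to 1804 in fibroblast vehicle arrays. Of these 11, 5 passed the same threshold as lower in ATII cells in vehicle (Pdgfra, Pdgfrb, Thy1, Dcn and Tcf21) and 0 as higher. Their median log2 change was −0.79. Over all features 16.6% were lower and 14.4% higher. Both kinds of culture carried macrophage markers. The summed level of 15 markers was 31.9 to 50.2 in ATII vehicle arrays and 83.9 to 108 in fibroblast vehicle arrays. Of the 15, 12 or 13 were above background on each ATII vehicle array and 14 or 15 on each fibroblast vehicle array. Spi1 was below background on all ATII vehicle arrays. The fibroblast arrays numbered 2 (BAPN and vehicle) stood apart. Their summed mesothelial markers (Msln, Upk3b, Lrrn4 and Wt1) were 0.494 and 0.477, against 5.71 to 20.04 on the other 5 fibroblast arrays. On the ATII vehicle arrays this sum was 104 to 160. Of the 4 markers only Msln passed the threshold in vehicle, as higher in ATII cells. The summed epithelial markers were also lowest on the arrays numbered 2, at 4.05 and 4.04, against 7.46 to 20.08 on the other 5 fibroblast arrays.

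Of the 35 chemokine ligand genes, 18 were well above background on every array, 12 on some and 5 on none. The 5 were Ccl22, Ccl26, Cxcl2, Cxcl15 and Xcl1. For a gene to enter a comparison, 3 or more of the arrays in it had to be above background, which left 26 genes tested in at least 1 comparison and 9 in none. With the 5 above, the genes in no comparison were Ccl11, Ccl20, Cxcl3 and Cxcl9. Many ligand genes lie together in the genome, by the probe positions that the array files give on mouse build mm9. Probes for Cxcl5, Cxcl3, Cxcl15, Cxcl1 and Cxcl2 lie within chr5:91190490-91334593, and those for Cxcl9, Cxcl10 and Cxcl11 within chr5:92752191-92788699. Probes for Ccl2, Ccl7, Ccl11, Ccl12, Ccl8 and Ccl1 lie within chr11:81850650-81990510, and those for Ccl5, Ccl9, Ccl6, Ccl3 and Ccl4 within chr11:83339296-83478111.

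ATII cells and fibroblasts differed in most of the chemokine ligands that could be tested. In vehicle, 15 of 25 tested genes passed the threshold (limma with Benjamini-Hochberg adjustment over all features, adjusted p below 0.05), which is 60% of them, against 31% of all 32467 features. Of the 15, 5 were higher in ATII cells (14.4% of all features were) and 10 were lower (16.6% of all features). The median log2 change was −0.44 over the tested ligands and −0.13 over all features, and it was also −0.44 with the gene that was below background in 1 group at its bound. Higher in ATII cells were Cxcl10, Cxcl14, Cxcl16, Cxcl17 and Ccl25. Lower were Cxcl1, Cxcl5, Cxcl11, Ccl2, Ccl3, Ccl4, Ccl5, Ccl7, Ccl9 and Ccl12. The Cxcl11 call comes from a probe that shares a run of bases with probes of other features, as given below. A second Cxcl11 probe was not called, and the Cxcl11 call was lost in 11 of 29 alternative settings. In 13 of the 25 genes the ATII and fibroblast vehicle arrays did not overlap, and this was not counted over all features. Under BAPN, 13 of 25 tested genes passed (52%, against 29% of 32267 features), 4 higher in ATII cells (13.2% of all features) and 9 lower (15.7% of all features). These comparisons have different arrays, but every array belongs to the same fit.

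**Figure D1:**
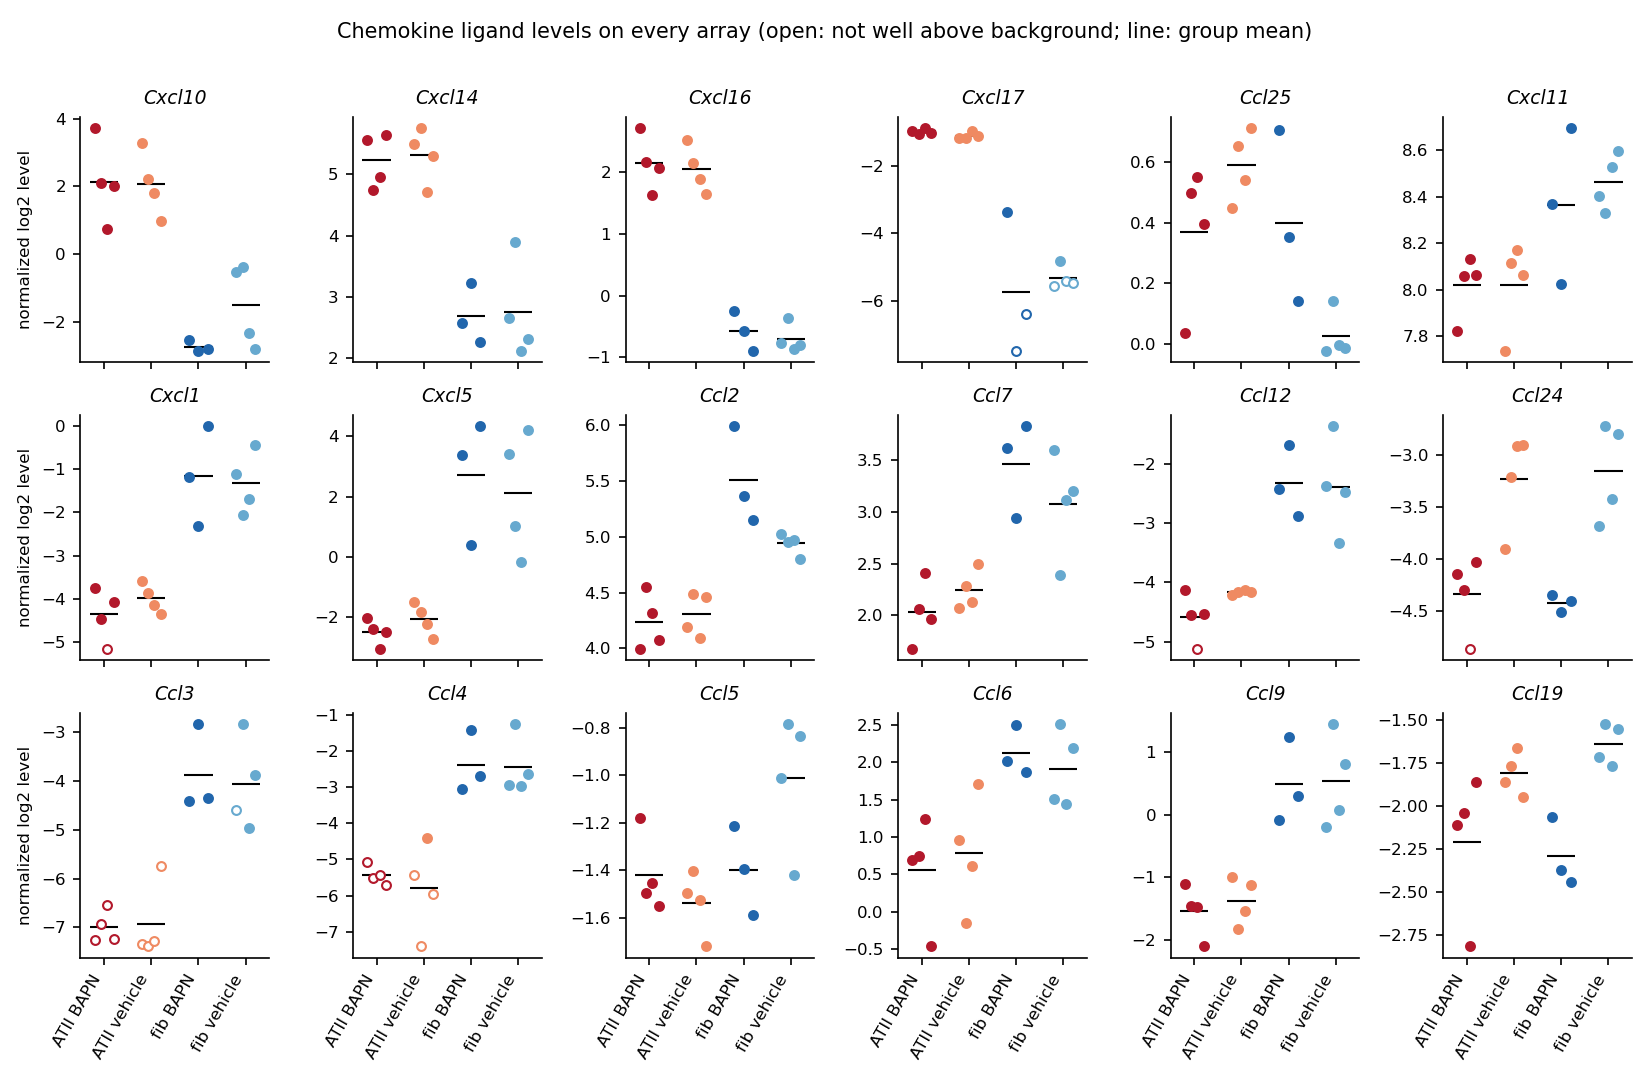
Normalized log2 level (vertical axes; 0 is an array's 75th percentile) of 18 chemokine ligands on each of the 15 arrays, in ATII cells with BAPN, ATII cells with vehicle, fibroblasts (fib) with BAPN and fibroblasts with vehicle. Open points are not well above background and lines are group means; Cxcl14, Cxcl16 and Cxcl17 are higher on every ATII array than on any fibroblast array, and Cxcl1, Cxcl5, Ccl3 and Ccl9 are lower.

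**Figure D2:**
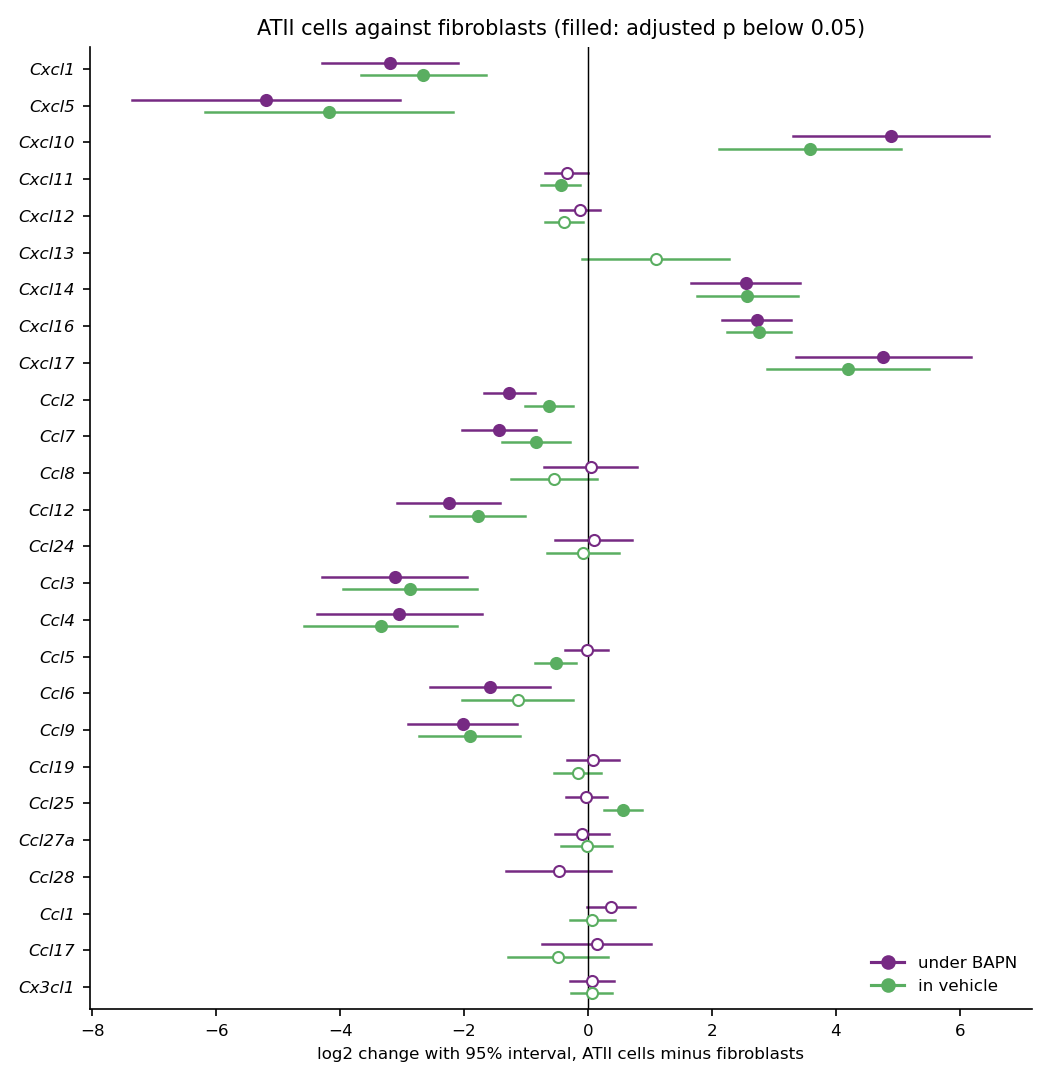
Log2 change of ATII cells minus fibroblasts with its 95% interval (horizontal axis) for the tested chemokine ligands, under BAPN (purple, upper) and in vehicle (green, lower). Filled points have an adjusted p below 0.05; Cxcl10 and Cxcl17 have the highest values and Cxcl5 the lowest in both.

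Among the 5 ELR CXC genes, the 2 that could be tested, Cxcl5 and Cxcl1, were both lower in ATII cells. Both proteins attract neutrophils through Cxcr2. In vehicle, Cxcl5 was at −1.49, −1.82, −2.21 and −2.72 on the ATII arrays, against 3.41, 1.02, −0.18 and 4.22 on the fibroblast arrays. The groups did not overlap, and the fibroblast arrays were far apart among themselves. The log2 change was −4.17 ± 0.93 (SE; adjusted p = 0.00348), 18.04-fold lower in ATII cells. Under BAPN, Cxcl5 was at −2.03, −2.38, −3.03 and −2.48 in ATII cells, against 3.37, 0.41 and 4.34 in fibroblasts, with a log2 change of −5.19 ± 1.00 (SE; adjusted p = 0.00149). Cxcl1, the keratinocyte-derived chemokine KC, had −3.59, −3.86, −4.14 and −4.35 on the ATII vehicle arrays, against −1.12, −2.07, −1.69 and −0.43 on the fibroblast vehicle arrays. Every ATII array was below every fibroblast array, at a log2 change of −2.66 ± 0.47 (SE; adjusted p = 0.000668). Under BAPN the change in Cxcl1 was −3.19 ± 0.51 (SE; adjusted p = 0.000333), with 3 of 4 ATII arrays above background.

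The other ELR genes were dim. Cxcl2, which encodes macrophage inflammatory protein 2, and Cxcl15, a chemokine known from lung epithelium, were below background on all 15 arrays. Cxcl3 was above background on 0 of 8 ATII arrays and on 2 of 7 fibroblast arrays, at −4.51 in a BAPN culture and −4.28 in a vehicle culture. The promoters of Cxcl1, Cxcl2 and Cxcl3 are shown because all 3 hold the same match to a κB-like motif (GGGA, any 2 bases, TTCC) of the kind bound by NF-κB, a transcription factor that drives many chemokine genes. The sequences are from RefSeq (build GRCm38.p6), 5′ to 3′ on the plus strand, and end 1 base before the transcript start. Capitals mark the match, which reads on both strands and there overlaps itself.
Cxcl1, chr5:90891125-90891244: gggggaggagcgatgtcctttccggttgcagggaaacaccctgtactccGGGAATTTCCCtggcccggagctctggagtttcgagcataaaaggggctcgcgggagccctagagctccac
Cxcl2, chr5:90903779-90903898: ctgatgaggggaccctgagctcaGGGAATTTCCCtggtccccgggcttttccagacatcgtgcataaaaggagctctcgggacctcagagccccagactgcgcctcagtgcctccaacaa
Cxcl3, chr5:90785981-90786100: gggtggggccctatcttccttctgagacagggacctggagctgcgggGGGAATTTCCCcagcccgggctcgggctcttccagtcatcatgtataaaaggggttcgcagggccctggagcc

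The match begins 71 bases before the start in Cxcl1, 97 bases in Cxcl2 and 73 bases in Cxcl3. Of the 35 ligand genes, 24 had a promoter in the RefSeq table and 11 did not. Searched on both strands of the 250 bases before the start, the motif occurred in 5 of the 24 (Ccl1, Cxcl1, Cxcl2, Cxcl3 and Cxcl10) and in 1.21% of all 32851 promoters. A match is a description of letters and not a site.

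The interferon-inducible CXC ligands bind Cxcr3 on activated T cells and natural killer cells. Of the 3, Cxcl10 was higher in ATII cells. In vehicle it was at 3.29, 2.21, 1.82 and 0.97 on the ATII arrays, against −0.52, −0.38, −2.35 and −2.80 on the fibroblast arrays. No fibroblast array reached the lowest ATII array, and the log2 change was 3.58 ± 0.68 (SE; adjusted p = 0.00114), 11.99-fold. Under BAPN, Cxcl10 was at 3.73, 2.09, 0.75 and 2.00 in ATII cells, against −2.56, −2.86 and −2.81 in fibroblasts (log2 change 4.89 ± 0.73, SE; adjusted p = 0.000211). Its second probe, annotated to a complementary DNA clone, was below background on all 15 arrays. With the mean of both probes the change in vehicle was 1.67. The promoter of Cxcl10 is shown because it holds a κB-like match as Cxcl1 does, while the gene lay on the other side of the comparison. It also holds GAAA, any 2 bases, GAAA, a motif like the interferon-stimulated response element, which was found in 3 of the 24 ligand promoters (Ccl19, Cxcl10 and Cxcl14) and in 2.98% of all promoters. Both matches are in capitals on the coding strand, the interferon-like one first.
Cxcl10, chr5:92348890-92349119, minus strand: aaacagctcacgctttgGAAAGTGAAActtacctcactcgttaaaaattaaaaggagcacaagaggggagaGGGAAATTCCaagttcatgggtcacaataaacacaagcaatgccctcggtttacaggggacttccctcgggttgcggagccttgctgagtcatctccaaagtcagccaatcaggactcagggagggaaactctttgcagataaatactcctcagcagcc

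Cxcl9 was above background on 1 of the 15 arrays, a fibroblast BAPN array. Cxcl11 is harder to read. Its brighter probe (chr5:92788567-92788626 on mm9) was at 7.74, 8.11, 8.17 and 8.06 in ATII vehicle arrays, against 8.40, 8.33, 8.53 and 8.59 in fibroblast vehicle arrays, a log2 change of −0.44 ± 0.15 (SE; adjusted p = 0.0359). A second Cxcl11 probe (chr5:92788640-92788699) ran from 1.72 to 2.84 over all arrays and was not called (log2 change −0.36 ± 0.20, SE; adjusted p = 0.1999 with each probe as its own feature). The brighter probe shares a run of 20 bases with 5 probes of other features, and the run that most of them share also occurs in 15 of the 32851 promoters. It is shown because a repeated stretch can catch RNA of other genes, and whether it did here was not tested.
Cxcl11 brighter probe, shared run: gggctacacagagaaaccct

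Of the 5 homeostatic and other CXC ligands, 3 were higher in ATII cells: Cxcl14, Cxcl16 and Cxcl17. Cxcl17, a mucosal chemokine of airway and gut epithelium, was at −1.17, −1.18, −0.96 and −1.12 in ATII vehicle arrays, against −5.57, −4.81, −5.40 and −5.46 in fibroblast vehicle arrays. Only 1 of 4 fibroblast vehicle arrays and 1 of 3 fibroblast BAPN arrays were above background, so the log2 change of 4.20 ± 0.60 (SE; adjusted p = 0.000131) rests on dim values on the fibroblast side. Of 5 airway epithelium markers, 4 were tested in vehicle, and Scgb1a1 and Foxj1 were higher in ATII cells. The summed level of all 5 was 4.86 to 13.2 in ATII vehicle arrays and 3.94 to 5.76 in fibroblast vehicle arrays. The part of airway epithelium in the Cxcl17 result was not tested. Cxcl16, a membrane-bound ligand for Cxcr6 that is shed by Adam10, was at 2.52, 2.15, 1.90 and 1.64 in ATII vehicle arrays, against −0.76, −0.37, −0.87 and −0.80 in fibroblast vehicle arrays. It was above background on every array, and its log2 change was 2.75 ± 0.24 (SE; adjusted p = 1.52e-06), 6.75-fold. Under BAPN the change in Cxcl16 was 2.72 ± 0.26 (SE; adjusted p = 4.13e-06). Cxcl14, a chemokine of epithelia whose receptor is debated, was at 5.49, 5.76, 4.71 and 5.31 in ATII vehicle arrays, against 2.66, 3.90, 2.12 and 2.31 in fibroblast vehicle arrays. All ATII values were above all fibroblast values (log2 change 2.57 ± 0.38, SE; adjusted p = 0.000153), and the fibroblast value of 3.90 came from the array numbered 2.

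Cxcl12, the stromal ligand of Cxcr4 that holds stem cells and lymphocytes in tissues, gave a different answer on each of its probes. The probe that stood for the gene (chr6:117131227-117131286) was at 6.08, 6.46, 5.98 and 6.35 in ATII vehicle arrays, against 6.41, 6.70, 6.47 and 6.80 in fibroblast vehicle arrays. These ranges overlap, and the log2 change of −0.38 ± 0.14 (SE) had an adjusted p of 0.0542, or 0.0422 with the replicate number as a block. The probe further upstream (chr6:117125026-117125085) was at 4.21, 4.65, 4.08 and 4.52 in ATII vehicle arrays, against 5.83, 5.73, 5.79 and 5.70 in fibroblast vehicle arrays. With each probe as its own feature its log2 change was −1.40 ± 0.17 (SE), with an adjusted p of 2.9e-05. Within an array, the upstream probe minus the downstream probe was −1.85 ± 0.041 in ATII vehicle cells and −0.834 ± 0.244 in fibroblast vehicle cells (SD, n = 4 each). This difference had an exact two-sided permutation p of 0.0286, the smallest that 4 against 4 arrays allow, and 0.0762 after Benjamini-Hochberg adjustment over 4 such comparisons. The probe pair was chosen after its values were seen, the permutation did not pair the arrays, and which transcripts carry the signal was not tested. Cxcl13, a B cell chemokine, was above background on 3 of 4 ATII vehicle arrays and on none of the other 11 arrays, and it did not pass (adjusted p = 0.162). With no fibroblast vehicle array above background, no size is given for it.

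**Figure D3:**
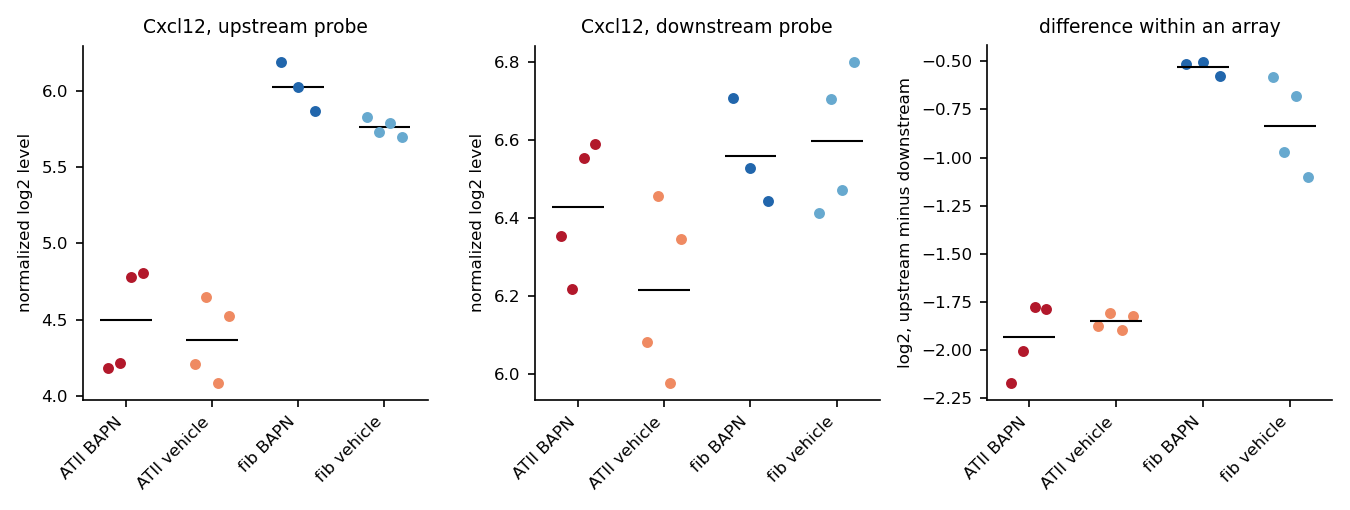
Cxcl12 on its upstream probe (left) and downstream probe (middle) as normalized log2 level on each array, and the difference of both within an array (right, log2), in ATII cells with BAPN and vehicle and in fibroblasts (fib) with BAPN and vehicle. Lines are group means; the within-array difference averages −1.85 in ATII vehicle cells and −0.834 in fibroblast vehicle cells.

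Among the 6 monocyte chemoattractant and eotaxin genes, 5 could be tested and 3 were lower in ATII cells: Ccl2, Ccl7 and Ccl12, all ligands of the monocyte receptor Ccr2. Ccl2 was bright in both cell types, at 4.19, 4.49, 4.09 and 4.46 in ATII vehicle arrays, against 5.03, 4.95, 4.97 and 4.80 in fibroblast vehicle arrays. The groups did not overlap (log2 change −0.63 ± 0.18, SE; adjusted p = 0.0160). Under BAPN it was −1.27 ± 0.19 (SE; adjusted p = 0.000248), with fibroblast arrays at 5.99, 5.37 and 5.15. Ccl7 was at 2.07, 2.28, 2.13 and 2.49 in ATII vehicle arrays, against 3.60, 2.39, 3.12 and 3.21 in fibroblast vehicle arrays. The groups overlapped through the fibroblast array numbered 2 (log2 change −0.84 ± 0.26, SE; adjusted p = 0.0235, and 0.0507 with the replicate number as a block). Ccl12 fell to −4.22, −4.16, −4.12 and −4.16 in ATII vehicle arrays, against −2.37, −1.36, −3.34 and −2.47 in fibroblast vehicle arrays (log2 change −1.78 ± 0.36, SE; adjusted p = 0.00165). Ccl8 had a log2 change of −0.55 with an adjusted p of 0.243, and the eotaxin gene Ccl24, whose product attracts eosinophils through Ccr3, one of −0.08 with a 95% interval of −0.66 to 0.50. Ccl11, the first eotaxin, was above background on 1 array. Ccl26, a further gene of the eotaxin kind in the name rule, was above background on 0 arrays.

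All 5 macrophage inflammatory protein genes could be tested, and 4 were lower in ATII cells in vehicle: Ccl3, Ccl4, Ccl5 and Ccl9. Ccl3, Ccl4 and Ccl5 attract monocytes and T cells, and Ccl9 encodes a ligand of Ccr1. In vehicle, Ccl4 was at −5.42, −7.40, −4.41 and −5.95 on the ATII arrays, 1 of them above background, against −2.94, −1.25, −2.96 and −2.65 on the fibroblast arrays. Its log2 change was −3.35 ± 0.57 (SE; adjusted p = 0.000516), and under BAPN, where no ATII array was above background, Ccl4 was at least 7.27-fold lower in ATII cells (adjusted p = 0.00212). Ccl3 was at −7.34, −7.39, −7.27 and −5.75 on the ATII vehicle arrays, against −4.60, −2.83, −4.98 and −3.88 on the fibroblast vehicle arrays. It was below background on all 8 ATII arrays and on 1 of 7 fibroblast arrays. It was at least 2.54-fold lower in ATII cells in vehicle (mean levels −6.94 ± 0.79 in ATII cells and −4.07 ± 0.94 in fibroblasts, SD, n = 4 each; adjusted p = 0.000624) and at least 2.72-fold lower under BAPN (adjusted p = 0.000688). Ccl9 was at −0.99, −1.83, −1.55 and −1.12 in ATII vehicle arrays, against −0.20, 1.46, 0.08 and 0.82 in fibroblast vehicle arrays (log2 change −1.91 ± 0.38, SE; adjusted p = 0.00154). Ccl5, known as RANTES, differed little (log2 change −0.52 ± 0.15, SE; adjusted p = 0.0165, and 0.0529 with the replicate number as a block), and its groups overlapped. Ccl6 was at 0.97, −0.15, 0.61 and 1.71 in ATII vehicle arrays, against 1.51, 2.52, 1.45 and 2.20 in fibroblast vehicle arrays, which overlap. Under BAPN it was at 0.69, 0.74, 1.25 and −0.47 in ATII cells, against 2.02, 2.50 and 1.88 in fibroblasts, without overlap. The log2 change was −1.14 ± 0.42 in vehicle (SE; adjusted p = 0.0539) and −1.58 ± 0.45 under BAPN (SE; adjusted p = 0.0175), or −1.40 (adjusted p = 0.0714) without the fibroblast arrays numbered 2.

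These 5 genes are also transcribed by macrophages, and macrophage markers moved with them. Of 15 markers, 14 were tested in vehicle: 13 were lower in ATII cells and Cd14 was higher. The median log2 change of the 14 was −2.17. C1qc lay further apart than this median, with a level of −6.27 in ATII vehicle cells and 0.97 in fibroblast vehicle cells. Within the fibroblasts, the arrays numbered 2 had the highest Ccl3, Ccl4, Ccl6 and Ccl9. Ccl4 was at −1.41 and −1.25 there (BAPN and vehicle), against −3.07 to −2.65 on the other 5 fibroblast arrays. Ccl9 was at 1.25 and 1.46, against −0.20 to 0.82. The summed macrophage level was 110 and 108 on these arrays and 83.9 to 106.7 on the others. Without both arrays, the change in ATII cells against fibroblasts in vehicle was −2.94 for Ccl4 (adjusted p = 0.00133) and −1.60 for Ccl9 (adjusted p = 0.00201), and Ccl3 was no longer above background on enough arrays to be tested. The part of macrophages in these results was not tested, and in bulk RNA fewer cells of a type and less RNA per cell cannot be told apart. Cxcl5 ran differently: its fibroblast values of 0.41 and 1.02 on the arrays numbered 2 and −0.18 on vehicle array 3 lay below the 3.37 to 4.34 of the other 4 arrays.

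**Figure D4:**
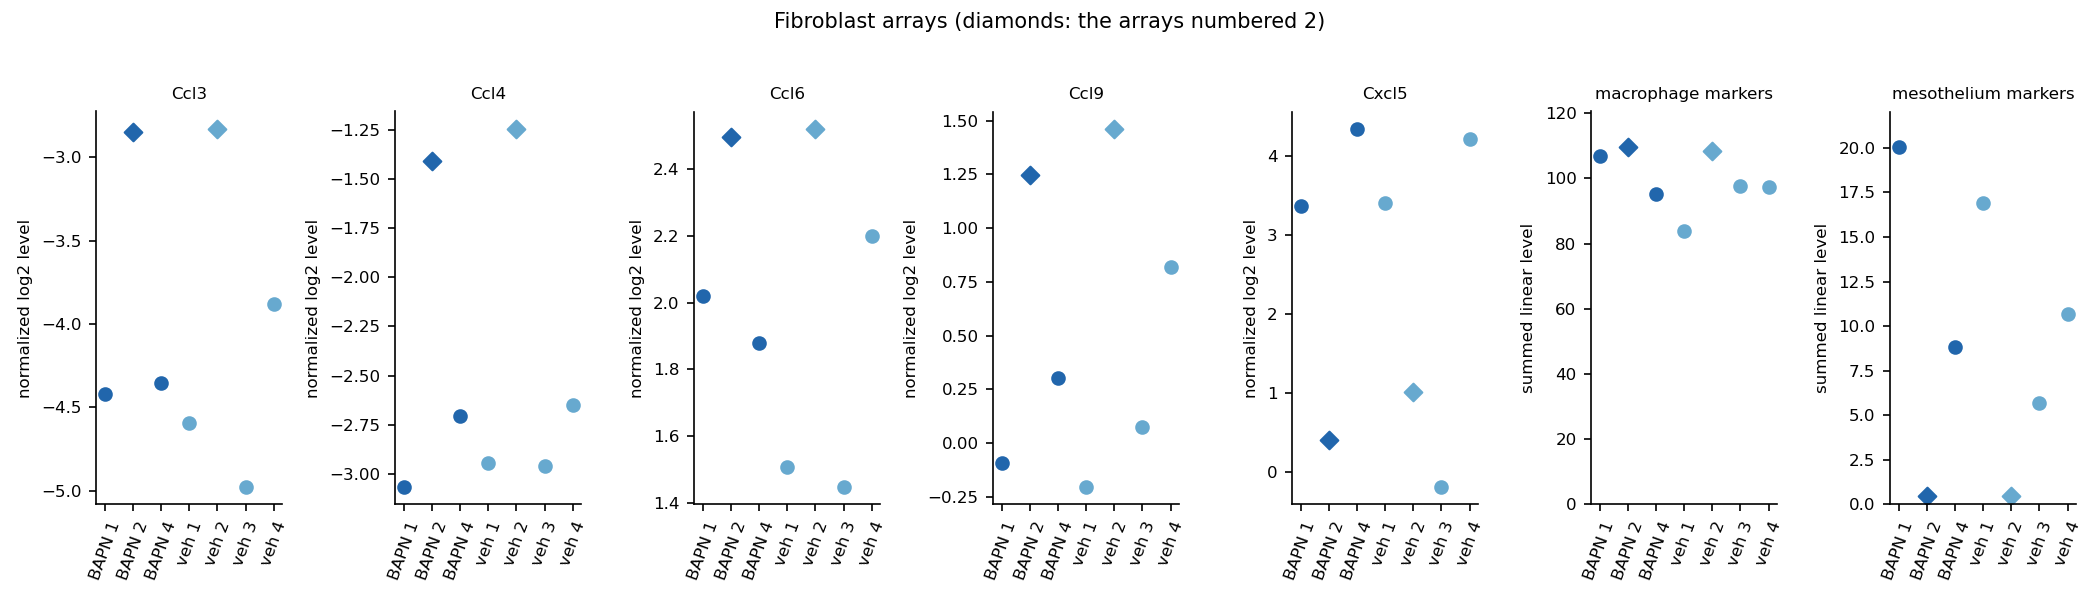
Ccl3, Ccl4, Ccl6, Ccl9 and Cxcl5 (normalized log2 level) and the summed linear level of 15 macrophage and 4 mesothelial markers on the 7 fibroblast arrays, BAPN to the left of vehicle (veh). Diamonds are the arrays numbered 2, which have the highest Ccl4 (−1.41 and −1.25) and the lowest mesothelial sums (0.494 and 0.477).

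Of the 5 epithelial and lymphoid-homing CC genes with a probe, 1 of the 3 tested in vehicle was called. Ccl25, a ligand of Ccr9 known from thymus and gut, was at 0.45, 0.66, 0.54 and 0.71 in ATII vehicle arrays, against −0.02, 0.14, −0.00 and −0.01 in fibroblast vehicle arrays. The groups did not overlap (log2 change 0.56 ± 0.14, SE; adjusted p = 0.00744), and with the mean of its 4 probes the change was 0.13 (adjusted p = 0.542). Ccl27a, an epithelial ligand of Ccr10, and Ccl19, a ligand of Ccr7, had log2 changes of −0.02 (95% interval −0.43 to 0.39) and −0.17 (−0.55 to 0.22). Ccl28, a mucosal chemokine, was above background on 5 of 15 arrays and Ccl20, a ligand of Ccr6, on 2 of 15. Neither T cell-directed gene that could be tested differed past the threshold: the log2 change was 0.07 for Ccl1 (95% interval −0.29 to 0.43) and −0.49 for Ccl17 (−1.30 to 0.32). Cx3cl1, the transmembrane chemokine fractalkine, was at 2.15, 2.53, 2.60 and 2.49 in ATII vehicle arrays, against 2.36, 1.97, 2.63 and 2.59 in fibroblast vehicle arrays. These values overlapped, with a log2 change of 0.06 (95% interval −0.27 to 0.39).

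The arrays lay on 2 slides, each with all 4 groups. On slide 1 alone 8 ligands passed in vehicle, and on slide 2 alone 3 did, with fewer samples. No called ligand changed direction on a slide where it could be tested. Ccl3 was above background on too few arrays to be tested on either slide, as was Ccl4 under BAPN, and Ccl4 in vehicle, Cxcl17 in both comparisons, and Ccl12 and Cxcl1 under BAPN could be tested on 1 slide each. Under BAPN no count is given for a single slide, since slide 1 held 1 fibroblast BAPN array and slide 2 held 1 ATII BAPN array.

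BAPN left most chemokine ligands within the spread of the arrays. In fibroblasts, 2 of 24 tested ligands passed, Ccl24 and Ccl19, both lower with BAPN. This is 8.33% of the ligands, against 13% of all 32251 features called (10.7% lower and 2.31% higher), and the median log2 change was 0.0018 over the ligands and 0.03 over all features. In 15 of the 24 ligands the 95% interval lay inside a 2-fold change either way. In ATII cells 0 of 23 ligands passed (limma; 2 had an unadjusted p below 0.05, and the lowest adjusted p was 0.475), and of all 32043 features 0% passed (3230 had an unadjusted p below 0.05). In 13 of the 23 the interval lay inside 2-fold.

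Ccl24 was at −4.34, −4.51 and −4.40 in fibroblasts with BAPN, against −3.68, −2.72, −3.42 and −2.80 in fibroblasts with vehicle. The groups did not overlap, at a log2 change of −1.26 ± 0.29 (SE; adjusted p = 0.0175), 2.40-fold lower. In ATII cells Ccl24 was at −4.14, −4.30, −4.86 and −4.03 with BAPN, against −3.91, −3.21, −2.92 and −2.90 with vehicle, again without overlap. The log2 change there was −1.10 ± 0.27 (SE; unadjusted p = 0.00125, adjusted p = 0.475). Ccl19, which guides T cells and dendritic cells to lymph nodes, was at −2.06, −2.37 and −2.44 in fibroblasts with BAPN, against −1.71, −1.52, −1.77 and −1.55 with vehicle. The log2 change was −0.65 ± 0.19 (SE; adjusted p = 0.0415), and a second Ccl19 probe gave −1.26 ± 0.23 (SE; adjusted p = 0.0105 with each probe as its own feature). The Ccl19 call was lost in 18 of 29 alternative settings, among them quantile scaling (adjusted p = 0.0823), the deposited table (0.0793) and no filter (0.0592), and the Ccl24 call in 7 of 29, among them normexp with quantile scaling (log2 change −0.51, adjusted p = 0.0545). In ATII cells Ccl19 was at −2.11, −2.04, −2.82 and −1.86 with BAPN, against −1.86, −1.77, −1.66 and −1.94 with vehicle (log2 change −0.40 ± 0.18, SE; adjusted p = 0.475).

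Both calls were lost without the fibroblast arrays numbered 2, and both held after a correction for spot position. The array has 164 columns of spots, and 94.8% of the 4191 features called in fibroblasts lay beyond column 82, where 50.2% of the features tested lay. Ccl24 stands in column 132 and the Ccl19 probes in columns 91, 96 and 121. After that correction the changes were −1.06 for Ccl24 (adjusted p = 0.0197) and −0.61 for Ccl19 (adjusted p = 0.0295). Without the fibroblast arrays numbered 2 they were −1.07 (adjusted p = 0.141) and −0.57 (adjusted p = 0.232), and 0 of 30519 features passed (limma; 5857 had an unadjusted p below 0.05). Without the vehicle array numbered 4, 0 ligands passed as well. On slide 1 alone, which held 1 fibroblast BAPN array, the changes were −0.80 for Ccl24 and −0.32 for Ccl19. On slide 2 alone they were −1.70 for Ccl24 (adjusted p = 0.00568) and −0.87 for Ccl19 (adjusted p = 0.0176).

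**Figure D5:**
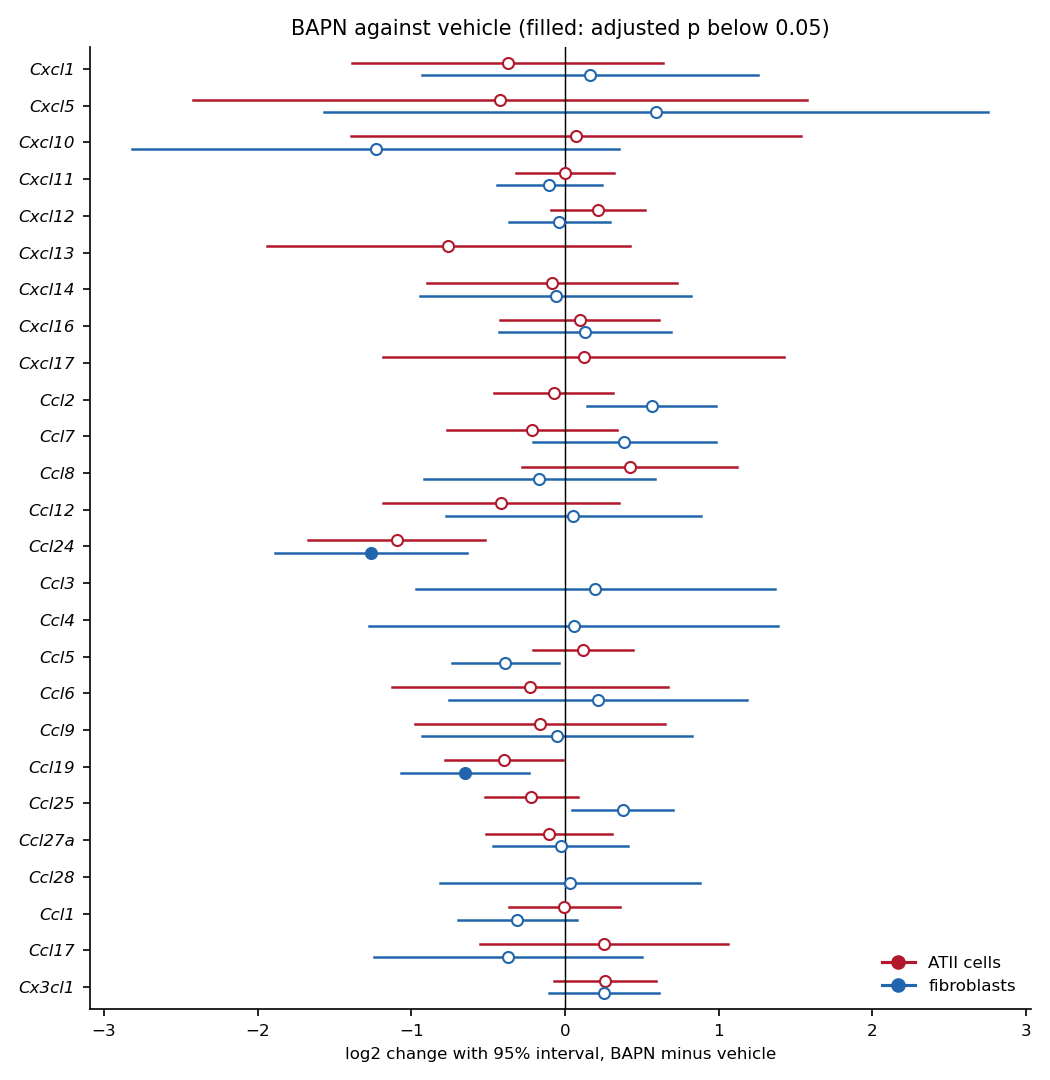
Log2 change of BAPN minus vehicle with its 95% interval (horizontal axis) for the tested chemokine ligands in ATII cells (red, upper) and fibroblasts (blue, lower). Filled points, Ccl24 and Ccl19 in fibroblasts, have an adjusted p below 0.05; most intervals cross 0.

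Below the threshold, Ccl2 in fibroblasts with BAPN (5.99, 5.37 and 5.15, against 5.03, 4.95, 4.97 and 4.80 with vehicle) gave 0.56 ± 0.19 on the log2 scale (SE; adjusted p = 0.0733). Ccl25 in fibroblasts was at 0.71, 0.35 and 0.14 with BAPN, against −0.02, 0.14, −0.00 and −0.01 with vehicle (log2 change 0.38 ± 0.15, SE; adjusted p = 0.129). After the correction for spot position both passed, Ccl2 at 0.62 (adjusted p = 0.0431) and Ccl25 at 0.50 (adjusted p = 0.0454). In ATII cells Cx3cl1 was at 2.57, 2.85, 2.78 and 2.62 with BAPN, against 2.15, 2.53, 2.60 and 2.49 with vehicle (log2 change 0.26 ± 0.15, SE; adjusted p = 0.481). Ccl25 was at 0.04, 0.50, 0.55 and 0.39 with BAPN, against 0.45, 0.66, 0.54 and 0.71 with vehicle (log2 change −0.22 ± 0.14, SE; adjusted p = 0.501).

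The BAPN effect was also compared between the cell types, subtracting the fibroblast effect from the ATII effect. Of 26 tested ligands 0 passed (limma; 3 had an unadjusted p below 0.05), as did 0% of 34285 features (4730 had an unadjusted p below 0.05). The ligands with the smallest p were Ccl25, with a difference of −0.59 ± 0.21 (SE; adjusted p = 0.253), Ccl2 with −0.64 ± 0.26 (SE; adjusted p = 0.313), Ccl5 with 0.50 ± 0.22 (SE; adjusted p = 0.339) and Ccl7 with −0.60 ± 0.38 (SE; adjusted p = 0.491). Ccl5 was at −1.18, −1.50, −1.45 and −1.55 in ATII cells with BAPN, against −1.50, −1.40, −1.53 and −1.72 with vehicle. In fibroblasts it was at −1.21, −1.40 and −1.59 with BAPN, against −1.01, −0.78, −1.42 and −0.84 with vehicle, and the groups overlapped in both cell types. Ccl7 overlapped too, at 1.68, 2.07, 2.41 and 1.96 in ATII cells with BAPN, and at 3.62, 2.95 and 3.83 in fibroblasts with BAPN, beside the vehicle values above. For Ccl24 the difference was 0.17, with a 95% interval of −0.68 to 1.02, so effects that differ by 2-fold remain possible. In 8 of the 26 the interval lay inside 2-fold.

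Related genes outside the name rule were read from listed sets. Pf4 and Ppbp, chemokine genes under other names, went opposite ways. Ppbp, an ELR CXC ligand of platelets, had at least 30.2-fold more signal in ATII vehicle cells (mean levels −0.03 ± 0.97 in ATII cells and −6.41 ± 1.12 in fibroblasts, SD, n = 4 each; adjusted p = 1.32e-05). Pf4, also a platelet chemokine, had a log2 change of −5.34 (mean levels −3.74 in ATII cells and 1.60 in fibroblasts; adjusted p = 1.94e-05). Of 24 receptor genes, 17 were tested in vehicle, and those that passed included Cxcr4 and Cxcr6, higher in ATII cells, and Cx3cr1 and Ackr3, lower. Cxcr6, the receptor of Cxcl16, had a log2 change of 3.62 (mean levels 1.17 in ATII cells and −2.45 in fibroblasts; adjusted p = 2.53e-07), and Ackr3, a decoy receptor for Cxcl12, one of −1.82 (adjusted p = 9.73e-05). With BAPN in fibroblasts, 5 of 15 tested receptor genes were lower (Ccr3, Ccr7, Ccr8, Ccrl2 and Ackr1) and 0 higher, where 10.7% of all features were lower and 2.31% higher. Without the fibroblast arrays numbered 2, 0 features passed.

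Of 6 genes for shedding and cleavage of ligands, 4 were higher in ATII cells in vehicle, where 14.4% of all features were: Adam10, Dpp4, Mmp2 and Mmp9. Adam10, which sheds Cxcl16 and Cx3cl1, had a log2 change of 0.58 (adjusted p = 0.000865), and Mmp9 was at least 103-fold higher (adjusted p = 2.33e-11). Of 18 NF-κB genes tested, 8 were higher in ATII cells, Tnfaip3 among them (log2 change 2.42, adjusted p = 1.58e-05), and 3 were lower, Nfkbiz, Sod2 and Vcam1. Of 14 interferon response genes tested, 4 were higher (Irf1, Mx1, Usp18 and Oas1a) and 5 lower (Irf7, Ifit1, Ifit3, Rsad2 and Gbp2). Over all features 14.4% were higher and 16.6% lower. With BAPN, Adam10 was higher in fibroblasts (log2 change 0.38, adjusted p = 0.044), and 0 genes of the NF-κB and interferon lists passed in either cell type. The Adam10 call was lost without the fibroblast arrays numbered 2 and with the replicate number as a block, where 0 features passed in fibroblasts.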

How the data were processed

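The array files are Agilent Feature Extraction output, version 10.7.3.1 per the file headers, with 1 colour and a design on mouse build mm9. The deposited processed signal is an intensity that the scanner software had background-corrected, per the file headers. A deposited series table of log2 values, which holds the same arrays after quantile scaling by the authors as far as its columns show, served as an alternative. From the intensities, log2 was taken and each array's 75th percentile over non-control probes subtracted. The probe with the highest mean stood for a gene. Features with a signal well above background on 3 or more of the arrays compared were tested with limma 3.58.1 in R 4.3.3 (group means on all 15 arrays, Benjamini-Hochberg, threshold 0.05), and intervals are at 95%. Other steps used Python 3.11.15. The test was also run on simulated data with independent noise. These hold no effect of slide, spot position or replicate, so the run cannot check the test against such effects. "At least" folds set the lowest signal above background in place of a dim group. Their number limits the precision of the arrays.

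The chemokine set, the gene lists and the tests were chosen with earlier results of these data known. Genes are given with values for each array where they passed in vehicle with a log2 change of 2 or more either way, were among the 8 brightest, passed with BAPN or, where none did, had the 4 smallest p. The main fit did not pair arrays, and the replicate number was a block only in an alternative setting. Deviations from group means correlated at 0.22 to 0.39 in the 4 same-numbered pairs of ATII and fibroblast vehicle arrays. Other pairs on the same slide gave 0.24 to 0.334, and pairs across slides at most −0.175. Between the cell types in vehicle, pairing by number and a shared slide thus cannot be told apart. For BAPN against vehicle, same-numbered pairs gave −0.046 to 0.276 in fibroblasts and −0.039 to 0.405 in ATII cells. Other pairs on the same slide gave −0.398 to −0.328 and −0.26 to −0.142, below the same-numbered pairs. Pairs across slides gave at most 0.298 and 0.334. Alternatives changed scaling, background, filter, probes, spot position, slide, block and arrays left out. Sequences are from RefSeq tables or the array files. The result of 1 receptor gene is not reported here.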

Additional observations from a re-analysis of the deposited data

Results flagged for a closer look

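In 5 of 76 gene and group combinations with 4 arrays, 1 array lay far from the other 3 by Dixon's test; chance flags about 1 in 20 such groups. Ccl20 was at −0.08 on the ATII vehicle array numbered 3, where the other 3 were between −7.92 and −7.59, below background. Ccl20 was also at −3.96 on the fibroblast vehicle array numbered 4, where the others were between −7.70 and −7.09. Ccl11 was at −2.59 on the ATII BAPN array numbered 3, with the others between −7.51 and −7.22. Ccl1 was at −3.18 on the ATII BAPN array numbered 1, and Ccl25 at 0.14 on the fibroblast vehicle array numbered 2. Ccl20 and Ccl11 entered no test.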

How the results depend on the processing

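Under 29 alternative settings, 4 of the 15 ligands called in vehicle and 6 of the 13 called under BAPN passed in every setting that could test them, against 0 of the 2 called in fibroblasts with BAPN, and no called change turned its sign. Only Cxcl16 was tested in all 29, in both comparisons. In vehicle the others were Ccl3 (22 settings), Ccl4 (27) and Cxcl17 (27). Under BAPN they were Ccl3 and Ccl4 (22 each) and Ccl12, Cxcl1 and Cxcl17 (27 each). These genes left the settings in which too few arrays were above background, so their record is not that of all 29. In vehicle the count was 8 on slide 1 and 3 on slide 2, where fewer arrays enter. Under BAPN it was 8 with genes above background on every array compared, where 18 genes were tested. The count in fibroblasts with BAPN was 1 with quantile scaling, normexp with quantile scaling, the deposited table or no filter. It was 4 with spot position corrected, and 0 with the replicate block and without the arrays numbered 2 (chosen after seeing the data). The cause was not tested. On slide 2 alone, with 1 ATII BAPN array assumed to vary like the others, the BAPN change of Ccl19 in ATII cells was −0.96. On slide 1 alone, with 1 fibroblast BAPN array, the difference of effects for Cxcl17 was −2.06. Leaving out 1 array gave 12 to 16 calls in vehicle, 11 to 13 under BAPN, 0 to 2 in fibroblasts with BAPN (0 without vehicle array 2, vehicle array 4 or BAPN array 2), and 0 to 0 in the other comparisons. With the replicate number as a block, 14 ligands passed in vehicle, 10 under BAPN and 0 in each BAPN comparison. In fibroblasts with BAPN 0 of all 32251 features passed with this block. Same-numbered arrays in the BAPN comparisons correlated at −0.046 to 0.405, and share a slide as well as a number. Other pairs on the same slide correlated at −0.398 to −0.142.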
